A study of Mus musculus with 16 samples.

Results

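The genes described here carry glucose and lactate across cell membranes. The 10 genes were named by symbol, with no measured value in the rule, and all were on the array, through 14 of its 55681 probes and out of 21368 named genes. Slc2a1, Slc2a3, Slc2a4, Slc2a6 and Slc2a10 encode facilitative glucose carriers (GLUT proteins). Slc16a1, Slc16a3, Slc16a4 and Slc16a7 encode monocarboxylate carriers (MCT proteins). Bsg encodes basigin, the membrane glycoprotein that accompanies MCT1 and MCT4 to the cell surface.

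The cells were primary cortical cultures of C57BL/6 mice, each hybridised to a 1-colour Agilent expression array, with 4 arrays in each of 4 groups. The groups were astrocytes given 1 nM recombinant secreted Klotho for 24 h, astrocytes given phosphate-buffered saline as vehicle, neurons given the same Klotho for 24 h, and neurons given vehicle. Klotho is a protein with a membrane form and a shed, secreted form. Per the labels, neurons came from embryonic day 16 cortex and were treated on day 14 in vitro, while astrocytes came from pups of postnatal day 0 to 5, were shaken for 15 h to remove other cells and reached a stated purity above 98%; the astrocyte labels also carry embryonic day 16, which goes against the protocol. All groups were wild type, and the labels do not say whether replicates were separate cultures, so each p-value measures the spread between these arrays, which may be technical.

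Glucose enters brain cells through GLUT proteins, down its concentration gradient. Pyruvate made from it can be reduced to lactate, which leaves or enters cells with a proton through MCT proteins. In brain, GLUT1 (Slc2a1) is known from glia and vessel walls and GLUT3 (Slc2a3) from neurons. MCT4 (Slc16a3) is known as an exporter of glycolytic cells and MCT2 (Slc16a7) as a high-affinity carrier of neurons. Astrocytes are known to release lactate, and neurons can use it as fuel. The study's question was whether Klotho changes glucose use in astrocytes.

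Promoters are shown for 4 of the genes on which the results turn: Slc2a1, Slc16a3 and Slc16a4, which were higher in astrocytes than in neurons, and Slc2a6, which had the largest Klotho difference in astrocytes, though not called. RefSeq (GRCm38.p6) promoters of 250 bases before to 50 bases after the start were matched for 6 of the 10 genes, and each is printed in the gene's own direction. Capitals mark matches, on either strand, to ACGTG or GCGTG (core letters of hypoxia-response elements) and to GGGCGG (a GC box).

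Slc2a1, chr4:119108495-119108794, plus strand: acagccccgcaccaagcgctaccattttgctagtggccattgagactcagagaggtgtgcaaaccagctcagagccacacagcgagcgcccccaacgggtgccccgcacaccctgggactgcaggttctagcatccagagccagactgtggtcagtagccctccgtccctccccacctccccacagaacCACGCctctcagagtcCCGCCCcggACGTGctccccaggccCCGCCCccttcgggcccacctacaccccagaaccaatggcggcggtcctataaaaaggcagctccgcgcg

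Slc16a3, chr11:120948817-120949116, plus strand: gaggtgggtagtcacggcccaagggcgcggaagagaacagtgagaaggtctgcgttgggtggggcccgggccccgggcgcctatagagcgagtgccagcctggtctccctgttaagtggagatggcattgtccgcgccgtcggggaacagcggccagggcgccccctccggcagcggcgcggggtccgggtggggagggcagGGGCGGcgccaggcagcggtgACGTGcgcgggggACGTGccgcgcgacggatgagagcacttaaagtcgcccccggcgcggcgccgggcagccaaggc

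Slc16a4, chr3:107290980-107291279, plus strand: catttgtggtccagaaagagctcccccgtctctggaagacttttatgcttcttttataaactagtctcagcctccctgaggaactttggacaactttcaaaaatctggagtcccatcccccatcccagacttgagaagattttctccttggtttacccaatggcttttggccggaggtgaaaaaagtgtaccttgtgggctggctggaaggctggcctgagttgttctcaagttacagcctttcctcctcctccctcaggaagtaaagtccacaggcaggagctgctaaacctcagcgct

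Slc2a6, chr2:27027949-27028248, minus strand: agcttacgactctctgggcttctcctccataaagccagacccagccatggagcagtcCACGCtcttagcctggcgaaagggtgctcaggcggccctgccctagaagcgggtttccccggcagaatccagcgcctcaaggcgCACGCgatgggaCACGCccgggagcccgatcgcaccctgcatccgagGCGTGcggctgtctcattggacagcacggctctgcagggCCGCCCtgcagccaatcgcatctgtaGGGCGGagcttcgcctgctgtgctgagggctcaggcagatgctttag

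The Slc2a1 window held 1 ACGTG, 1 GCGTG and 2 GC boxes. The Slc16a3 window held 2 ACGTG and 1 GC box, the Slc2a6 window 4 GCGTG and 2 GC boxes, and the Slc16a4 window none of these letters. Among 32851 promoters of 300 bases, 19.6% held ACGTG, 32.4% GCGTG and 35.7% GGGCGG. In these 4 windows no match overlapped another. These matches describe letters only and say nothing about binding.

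A level below is log2 of the deposited processed signal minus the array's own 75th percentile, so that 0 is that percentile; levels of different genes come from different probes and are not comparable. Between 57.5% and 67.3% of spots were well above background on each array. The lowest level among spots well above background lay between −6.82 and −5.14, depending on the array. Defining astrocyte markers summed, in multiples of the 75th percentile, to 338–563 in astrocytes and 124–243 in neurons, with 12 of 12 and 11 of 12 well above background on all 8 arrays of the cell type. Of these 12, limma called 9 higher and 2 lower in astrocytes at an adjusted p below 0.05. Of everything tested, it called 29.2% higher and 41.1% lower. Neuron markers summed to 31.8–103 in astrocytes (8 of 12 on all arrays, with Nefl and Slc17a7 on none) and to 433–600 in neurons (12 of 12). Microglia markers summed to 108–228 in astrocytes (10 of 10) and to 34.2–43.9 in neurons (6 of 10). All neuron arrays were on 1 slide and all astrocyte arrays on 2 others, so cell type cannot be told apart from slide and scan.

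The treatment of 4 of the 8 astrocyte arrays is disputed within the deposit. The deposited value table holds a rescaled copy of each array, and 10 of its 16 columns matched the scanner file of their own sample, while 6 matched the file of another sample, 4 of them a sample of the other treatment. Every match was within 0.005 and the next best array differed by at least 1.666. Klotho comparisons in astrocytes are therefore given under both assignments, by scanner file and by value table. By scanner file, all Klotho-treated astrocyte arrays were on one slide and all vehicle arrays on another. By value table each slide held 2 of each, but all Klotho arrays were in slide column 4 and all vehicle arrays in column 3. Treatment thus cannot be told apart from slide by scanner file, nor from slide column by value table. In neurons the scanner file and the value table gave each array the same treatment.

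**Figure D1:**
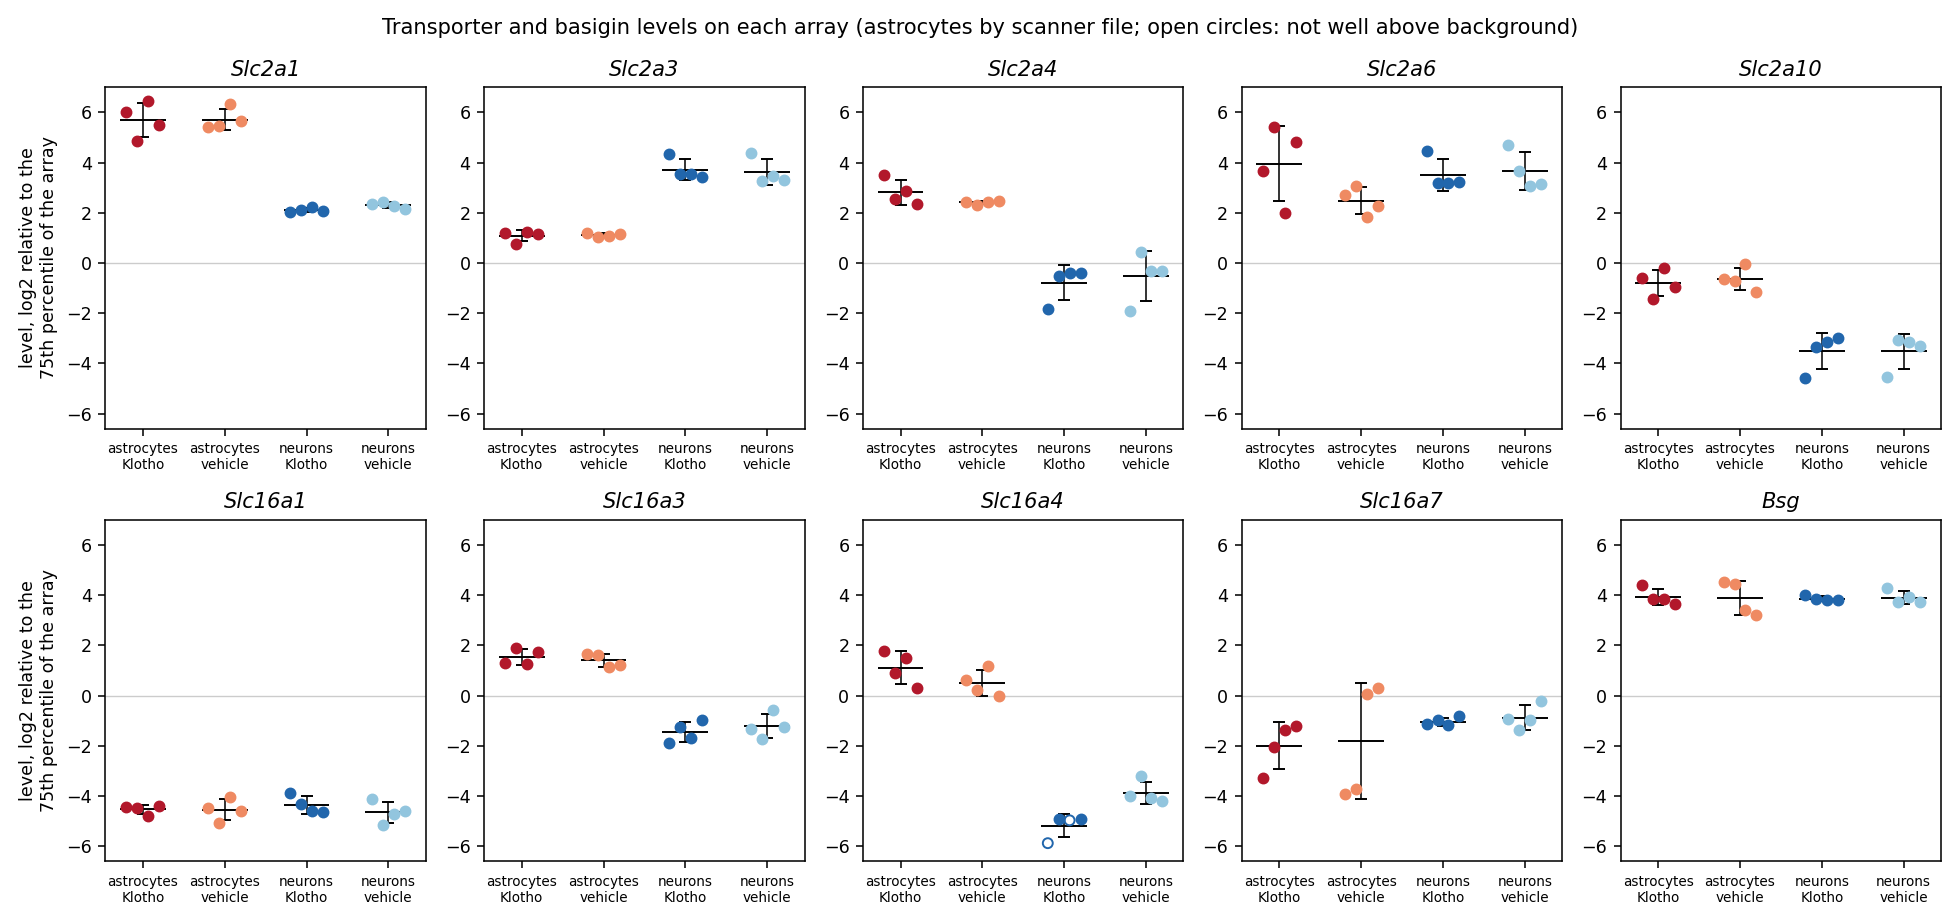
Level of each of the 10 genes (log2 processed signal minus the array's 75th percentile, vertical axis, same scale in every panel) on every array, in Klotho-treated astrocytes, vehicle astrocytes, Klotho-treated neurons and vehicle neurons, grouped by scanner file. Points are arrays, open where the probe was not well above background, and bars are the mean and SD of 4 arrays; Slc2a1, Slc2a4, Slc2a10, Slc16a3 and Slc16a4 sit higher in all 8 astrocyte arrays than in any neuron array, and Slc2a3 lower.

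Both cell types expressed these carriers, with 9 of the 10 genes well above background on all 16 arrays and Slc16a4 on 14, and 6 of the 10 differed in level. Slc2a1, Slc2a4, Slc2a10, Slc16a3 and Slc16a4 were higher in astrocytes by 6.95-fold to 40.6-fold, Slc2a3 was 5.87-fold lower, and Slc2a6, Slc16a1, Slc16a7 and Bsg did not pass the test. These 6 of 10 were called at an adjusted p below 0.05 (limma, Benjamini-Hochberg over 26108 genes or unnamed transcripts), where 70.3% of all those tested were called (29.2% higher, 41.1% lower). The cell types did not overlap for the same 6 genes, against 43.5% of everything tested. The median difference over the 10 genes was 1.42, and over everything tested it was −0.21. With 10 genes, 6 called does not set the carriers apart from the background of 70.3%. By direction, 5 were higher, against 29.2% of everything tested, and 1 was lower, against 41.1%. In bulk cultures, fewer cells of a type and less RNA per cell cannot be told apart.

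Slc2a1 had the levels 6.00, 4.85, 6.44 and 5.51 in Klotho-treated astrocytes and 5.41, 5.46, 6.35 and 5.64 in vehicle astrocytes. It had 2.02, 2.10, 2.22 and 2.06 in Klotho-treated neurons and 2.34, 2.42, 2.28 and 2.15 in vehicle neurons. The lowest astrocyte array lay well above the highest neuron array, and the astrocyte arrays were the more spread. The mean was 5.71 ± 0.53 in astrocytes and 2.20 ± 0.14 in neurons (SD, n = 8 each), a difference of 3.51 ± 0.20 (SE), or 11.4-fold (limma adjusted p = 2.29e-10). The difference was 3.60 among Klotho-treated cultures alone and 3.42 among vehicle cultures alone.

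Slc2a3, the carrier associated with neurons, ran the other way. Its levels were 1.21, 0.75, 1.24 and 1.16 in Klotho-treated astrocytes and 1.20, 1.02, 1.09 and 1.15 in vehicle astrocytes. They were 4.34, 3.53, 3.55 and 3.42 in Klotho-treated neurons and 4.37, 3.28, 3.47 and 3.31 in vehicle neurons. Every astrocyte array was below every neuron array, and replicate 1 was the highest neuron array under each treatment. The difference was −2.55 ± 0.18 (5.87-fold lower in astrocytes, limma adjusted p = 2.94e-09). Without both neuron replicate 1 arrays, an alternative chosen after seeing the data, it was −2.32.

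Slc2a4 encodes GLUT4, the insulin-responsive carrier of muscle and fat. Its levels were 3.51, 2.54, 2.86 and 2.34 in Klotho-treated astrocytes and 2.44, 2.32, 2.44 and 2.45 in vehicle astrocytes. They were −1.84, −0.50, −0.40 and −0.40 in Klotho-treated neurons and −1.90, 0.44, −0.31 and −0.32 in vehicle neurons. No neuron array reached the astrocyte range, and replicate 1 was the lowest neuron array under each treatment. The difference was 3.27 ± 0.30, or 9.64-fold (limma adjusted p = 9.53e-08), and 2.86 without both neuron replicate 1 arrays. This probe was printed 10 times on the array, and the SD over its 8 to 10 usable spots had a median of 0.041, against a between-array SD of 0.06 in vehicle astrocytes and 0.51 to 0.99 in the other groups.

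Slc2a10 encodes GLUT10, whose loss causes arterial tortuosity syndrome in humans. Its levels were −0.59, −1.44, −0.21 and −0.96 in Klotho-treated astrocytes and −0.64, −0.72, −0.06 and −1.14 in vehicle astrocytes. They were −4.58, −3.36, −3.16 and −2.99 in Klotho-treated neurons and −4.55, −3.05, −3.16 and −3.29 in vehicle neurons. The astrocyte arrays were again all higher, by 2.80 ± 0.28, or 6.95-fold (limma adjusted p = 2.58e-07). Without both neuron replicate 1 arrays, which were the lowest, the difference was 2.45.

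Slc2a6 encodes GLUT6, a carrier found in lysosomal membranes and known from activated macrophages. Its levels were 3.65, 5.41, 1.99 and 4.80 in Klotho-treated astrocytes and 2.71, 3.08, 1.84 and 2.26 in vehicle astrocytes. They were 4.48, 3.20, 3.17 and 3.22 in Klotho-treated neurons and 4.71, 3.67, 3.08 and 3.15 in vehicle neurons. Astrocyte and neuron ranges overlapped, and the astrocyte arrays spanned both ends. The difference of −0.37 ± 0.43 did not pass (limma adjusted p = 0.45). It was −1.19 ± 0.41 among vehicle cultures (adjusted p = 0.0362) and 0.45 among Klotho-treated cultures (adjusted p = 0.573), where 53.3% and 63.9% of everything tested was called. The second Slc2a6 probe gave −0.52 (adjusted p = 0.334).

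Slc16a3, the exporter MCT4, had the levels 1.30, 1.90, 1.26 and 1.75 in Klotho-treated astrocytes and 1.65, 1.61, 1.14 and 1.23 in vehicle astrocytes. It had −1.87, −1.25, −1.68 and −0.97 in Klotho-treated neurons and −1.33, −1.71, −0.57 and −1.27 in vehicle neurons. All astrocyte arrays were above all neuron arrays, with a similar spread in both cell types. The difference was 2.81 ± 0.19, or 7.02-fold (limma adjusted p = 1.47e-09). A second Slc16a3 probe gave 2.69 ± 0.18, or 6.44-fold.

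Slc16a4, which encodes MCT5, a family member whose substrates are little known, differed by more than any other of the 10 genes. Its levels were 1.78, 0.89, 1.49 and 0.31 in Klotho-treated astrocytes and 0.64, 0.24, 1.18 and −0.02 in vehicle astrocytes. They were −5.88, −4.93, −4.97 and −4.93 in Klotho-treated neurons and −4.02, −3.21, −4.08 and −4.20 in vehicle neurons. The neuron values were near the detection limit, with 6 of 8 neuron arrays well above background, against 8 of 8 astrocyte arrays. The difference was 5.34 ± 0.25, or 40.6-fold (limma adjusted p = 2.07e-11). For a bound, each neuron array was taken at the higher of its own value and the lowest signal among its probes well above background. On the processed signal used here, the difference was then at least 39.6-fold. Among Klotho-treated cultures, where 2 of 4 neuron arrays were well above background, it was at least 74.9-fold by the same bound, and among vehicle cultures it was 4.39, or 21.0-fold. With another background correction the difference over all arrays was 3.83, which is less than the bound. Bounds built this way thus hold only for the processed signal used here.

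Slc16a7, the carrier MCT2, depended on the probe. On the brightest of its 3 probes the levels were −3.30, −2.06, −1.38 and −1.22 in Klotho-treated astrocytes and −3.91, −3.73, 0.07 and 0.31 in vehicle astrocytes. They were −1.15, −0.99, −1.18 and −0.83 in Klotho-treated neurons and −0.94, −1.38, −0.99 and −0.20 in vehicle neurons. The astrocyte arrays lay on both sides of the neuron arrays, which were close together. The difference on this probe, −0.95 ± 0.57, did not pass (95% interval −2.17 to 0.27, limma adjusted p = 0.152). On the other 2 probes it was −0.63 ± 0.18 (adjusted p = 0.00552) and −1.89 ± 0.43 (adjusted p = 0.00114), where 69.6% of all probes tested were called; the last of these was well above background on 3 of 8 astrocyte arrays and 7 of 8 neuron arrays. All 3 probes thus gave a lower mean in astrocytes.

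Slc16a1, the broadly expressed carrier MCT1, was dim in both cell types. Its level was lowest at −5.07, in the middle at −4.48 and highest at −4.06 in astrocytes, against −5.16, −4.60 and −3.88 in neurons. The ranges nearly coincided, and the difference of −0.03 ± 0.18 had a 95% interval of −0.42 to 0.35 (limma adjusted p = 0.875). Bsg was bright in both, with a lowest, median and highest level of 3.20, 3.86 and 4.51 in astrocytes and 3.71, 3.83 and 4.27 in neurons. Its difference was 0.04 ± 0.20, with an interval of −0.39 to 0.46 (limma adjusted p = 0.878).

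**Figure D2:**
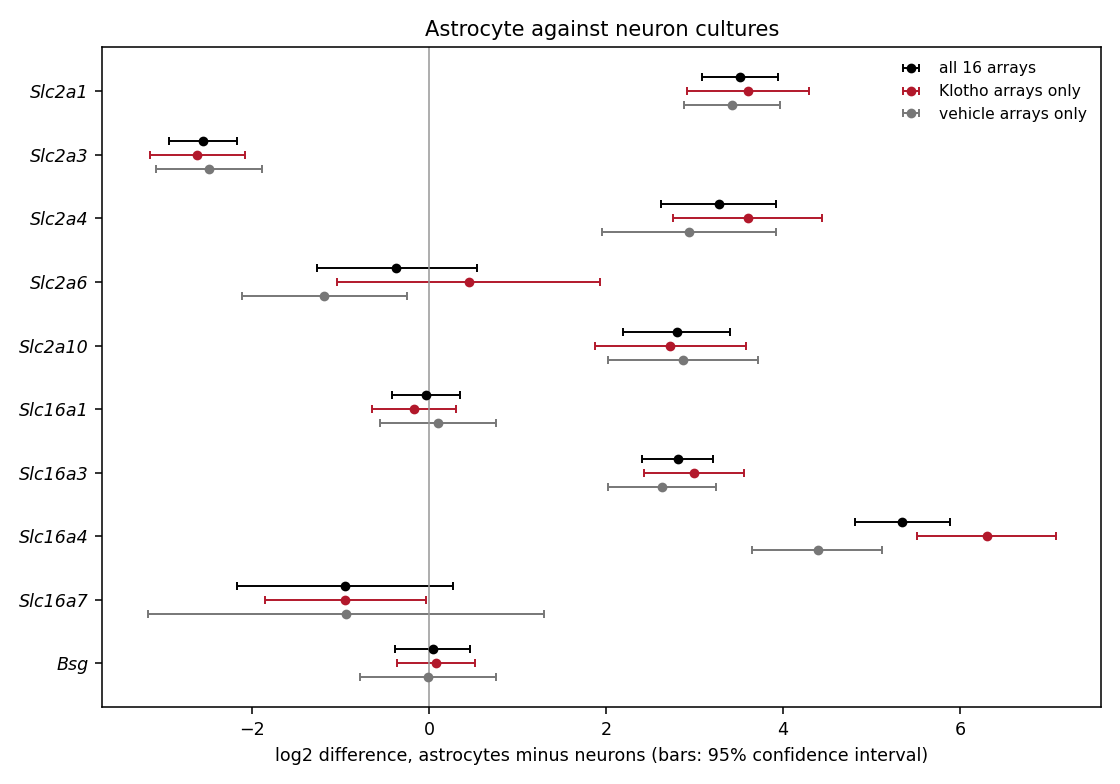
Astrocytes minus neurons (log2, horizontal axis) for each of the 10 genes, over all 16 arrays, over Klotho-treated cultures only and over vehicle cultures only, with 95% intervals as bars and 0 as the line of no difference. Slc16a4, Slc2a1, Slc2a4, Slc16a3 and Slc2a10 lie right of 0 in all 3 and Slc2a3 left of 0, while the intervals of Slc16a1 and Bsg cross 0.

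Markers of other cells also differed between the cultures. Endothelial markers, of cells whose wall carries GLUT1, summed to 18.5–38.5 in astrocytes (7 of 10 on all arrays, with Cldn5 and Tek on none). They summed to 4.72–6.91 in neurons (4 of 10, with Cldn5, Tek and Cdh5 on none). Of 7 endothelial markers tested, 3 were higher and 1 lower in astrocytes, with a median difference of 0.04. Choroid plexus and ependymal markers summed to 41.2–99.4 in astrocytes (5 of 6 higher, 1 lower) and 2.26–6.51 in neurons. The lower one, Ttr, was at least 23.5-fold lower in astrocytes by the bound used for Slc16a4. Fibroblast markers summed to 17.2–35.3 in astrocytes (4 of 6 higher, 2 lower) and 9.86–14.5 in neurons. Oligodendrocyte markers summed to 22.5–121 in astrocytes (7 of 8 lower) and 59.5–133 in neurons, and microglia markers as given above. The part of these cells in the carriers' levels was not tested.

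Other carriers of the same families were also divided between the cell types. Of 14 further sugar carriers on the array 10 were tested, and 3 were higher and 3 lower in astrocytes, with a median difference of 0.18. Slc45a1, a proton-linked sugar carrier of neurons, was lower at −5.73 ± 0.20 on the log2 scale (limma adjusted p = 5.66e-13). Slc2a9, a urate carrier, was at least 18.4-fold higher by the same bound (limma adjusted p = 3.89e-11), with 1 of 8 neuron arrays well above background, and Slc50a1 was higher by 1.16 ± 0.13 on the log2 scale. Slc2a13, the proton-linked inositol carrier, was lower at −1.66 ± 0.22. Slc2a2, the carrier of liver and islets, was well above background on 0 of 16 arrays.

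Of 14 further monocarboxylate carriers and partner proteins 12 were tested, and 4 were higher and 6 lower in astrocytes, with a median of −0.46. Slc16a11 was lower at −3.38 ± 0.14. Slc16a14 was at least 12.7-fold lower in astrocytes, where 0 of 8 arrays were well above background against 8 of 8 in neurons (limma adjusted p = 4.37e-11); this bound and the others here are built as for Slc16a4. Slc16a10, a carrier of aromatic amino acids, was at least 9.61-fold higher (limma adjusted p = 6.18e-10), with 3 of 8 neuron arrays well above background. Slc5a8, a sodium-coupled monocarboxylate carrier, was at least 2.07-fold higher in astrocytes, well above background on 7 of 8 astrocyte arrays and 0 of 8 neuron arrays (limma adjusted p = 1e-07). Emb, a basigin relative that accompanies MCT2, was lower at −0.65 ± 0.20 (limma adjusted p = 0.00923).

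The enzymes between the carriers, from hexokinase to lactate dehydrogenase, were divided as well: of 19 tested, 5 were higher and 9 lower in astrocytes, with a median of −0.13. Hk2, a hexokinase, which traps glucose in the cell as its phosphate, was higher by 3.54 ± 0.28. Hk3, another hexokinase, was at least 14.6-fold higher (limma adjusted p = 1.18e-09), with 6 of 8 neuron arrays well above background. Pfkfb3, which makes an activator of glycolysis, was higher by 1.06 ± 0.11. Ldhb was higher by 1.37 ± 0.19 (limma adjusted p = 8.00e-06). Ldha, the isoform known from lactate-producing cells, was lower at −0.94 ± 0.19 (adjusted p = 0.000351), though with quantile normalization it was −0.29 and was no longer called (adjusted p = 0.0646).

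Regulators that act on the carriers, their trafficking or their transcription gave 4 higher and 6 lower of 17 tested, with a median of 0.17. Akt1, a kinase of insulin signalling, was lower at −1.13 ± 0.16, and Prkaa1, a catalytic subunit of the energy sensor AMPK, was higher by 0.92 ± 0.14. Of 13 targets of the hypoxia response 8 were higher and 4 lower, with a median of 0.88. Car9, a carbonic anhydrase, was at least 144-fold higher (limma adjusted p = 1.65e-13), with 2 of 8 neuron arrays well above background, and Adm, a peptide hormone, was higher by 5.07 ± 0.33 on the log2 scale. Ankrd37 was lower at −2.50 ± 0.16. All of these lists are read against the same background of 70.3% called.

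No glucose or lactate carrier passed the test in Klotho-treated neurons. Limma called 0 of the 10 genes, where 0.15% of 24703 tested was called, all of them lower with Klotho. At an unadjusted p below 0.05 the count was 1 of 10, against 4.32% of everything tested. The groups did not overlap for 1 of 10, Slc16a4, against 4.25% of everything tested. The median change over the 10 genes was −0.15, with 2 positive and 8 negative, and over everything tested it was −0.03.

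Slc16a4 had the levels −5.88, −4.93, −4.97 and −4.93 in Klotho-treated neurons, against −4.02, −3.21, −4.08 and −4.20 in vehicle neurons. Every Klotho array was below every vehicle array, but the probe was well above background on only 2 of the 4 Klotho arrays, and it entered the test through the vehicle group. The difference was −1.30 ± 0.28 (95% interval −1.95 to −0.65, 2.46-fold), with an adjusted p of 0.452 in limma. All 4 pairs of equal replicate number were lower with Klotho, with differences of −1.86 to −0.73. Over the alternatives tried, the adjusted p ran from 0.0209, with no background filter, to 0.976. With normexp background correction the difference was −0.52 (adjusted p = 0.941).

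Other values moved with it. The lowest level well above background was itself −5.82 to −5.14 on Klotho-treated neuron arrays and −6.68 to −6.06 on vehicle neuron arrays, and 57.9–62.0% of spots were well above background on the Klotho arrays against 65.0–67.3% on the vehicle arrays. Among tested transcripts at a mean level of −5 to −4, where Slc16a4 lay, the median change was −0.01, with quartiles of −0.19 and 0.15. Liver markers summed to 5.84–7.0 in Klotho-treated neurons (8 of 16 on all arrays, with Alb, Ahsg, Apoa1, Fga, Fgg, Mup3 and Fabp1 on none) and to 10.6–17.3 in vehicle neurons (14 of 16). Their part in the Slc16a4 difference was not tested. Klotho arrays also occupied one row of the slide and vehicle arrays the other, so treatment cannot be told apart from array row.

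**Figure D3:**
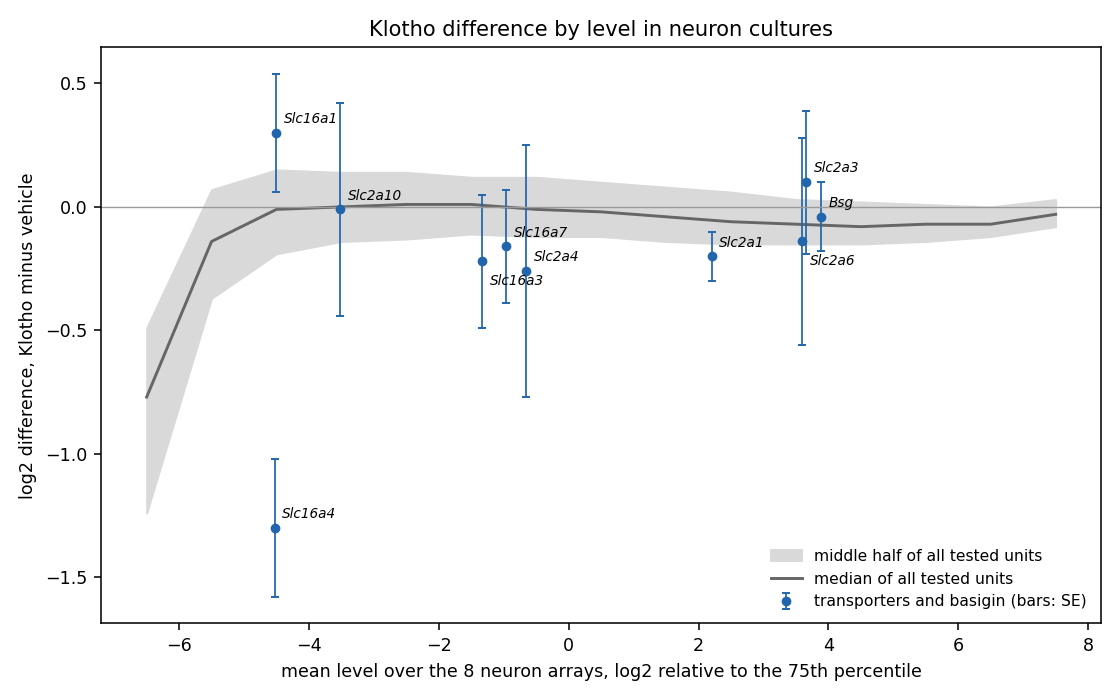
Klotho minus vehicle in neurons (log2, vertical axis) against mean level in neurons (horizontal axis), with the 10 genes as points with SE bars, and the median and quartiles of all tested transcripts in each bin of level as a line and band. Slc16a4, at −1.30, lies below the band of its level, and the other 9 genes lie between −0.26 and 0.30.

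Slc2a1 was the most evenly measured carrier in neurons. Its levels were 2.02, 2.10, 2.22 and 2.06 with Klotho and 2.34, 2.42, 2.28 and 2.15 with vehicle. The groups overlapped, and all 4 pairs were lower with Klotho, with differences of −0.32 to −0.06. The difference of −0.20 ± 0.10 (95% interval −0.43 to 0.03) did not pass (limma adjusted p = 0.987).

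The other carriers showed wider intervals. Slc2a3 differed by 0.10 ± 0.29, Slc2a4 by −0.26 ± 0.51, Slc2a6 by −0.14 ± 0.42 and Slc2a10 by −0.01 ± 0.43. Slc16a1 differed by 0.30 ± 0.24, Slc16a3 by −0.22 ± 0.27, Slc16a7 by −0.16 ± 0.23 and Bsg by −0.04 ± 0.14. Their adjusted p-values in limma were between 0.987 and 0.998.

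In astrocytes, where the study asked about glucose use, no carrier passed under either assignment of the arrays. By scanner file limma called 0 of 10 genes, where 0.0% of 23561 tested was called, and none of the 10 had an unadjusted p below 0.05, against 3.77% of everything tested. By value table it called 0 of 10, where 0.0% of 23607 was called. There 3 of the 10, Slc16a4, Slc2a10 and Slc2a1, had an unadjusted p below 0.05, against 2.5% of everything tested. The treatments did not overlap for 0 of 10 by scanner file, where 2.56% of everything tested did not, and for 1 of 10 by value table. The median change over the 10 genes was 0.03 by scanner file and −0.22 by value table, where everything tested had −0.01 and −0.05. Each of the 10 adjusted p-values was 1.0 under both assignments.

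Slc2a6 had the largest difference of the 10 under both assignments. By scanner file its levels were 3.65, 5.41, 1.99 and 4.80 with Klotho and 2.71, 3.08, 1.84 and 2.26 with vehicle. The groups overlapped because of the third Klotho array. The difference was 1.49 ± 0.68 (95% interval −0.04 to 3.03, limma adjusted p = 1.0), and all 4 pairs were higher with Klotho, by 0.16 to 2.54. By value table the levels were 5.41, 3.08, 2.26 and 4.80 with Klotho and 2.71, 1.84, 1.99 and 3.65 with vehicle, a difference of 1.34 ± 0.71 (limma adjusted p = 1.0). Within the 2 slides of that assignment it was 0.40 and 2.28.

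Inflammatory genes moved with Slc2a6. The summed level of 18 of them was 852, 1810, 76.5 and 1360 on the Klotho arrays by scanner file and 137, 149, 31.0 and 26.1 on the vehicle arrays. It was 8.28–11.8 in Klotho-treated neurons and 8.81–11 in vehicle neurons. The 3 highest sums were on the 3 arrays with the highest Slc2a6, and the part of these genes in the Slc2a6 values was not tested. By scanner file 17 of 17 tested had a higher mean with Klotho, with a median difference of 4.47. Limma called 0, and 16 had an unadjusted p below 0.05, against 3.77% of everything tested. Of the 18, 17 were well above background on all Klotho arrays and 12 on all vehicle arrays. Some thus entered the test through the Klotho group alone, and this filter favours a higher mean there. By value table it was 15 of 15, with a median of 2.16, and 0 were called or had an unadjusted p below 0.05.

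**Figure D4:**
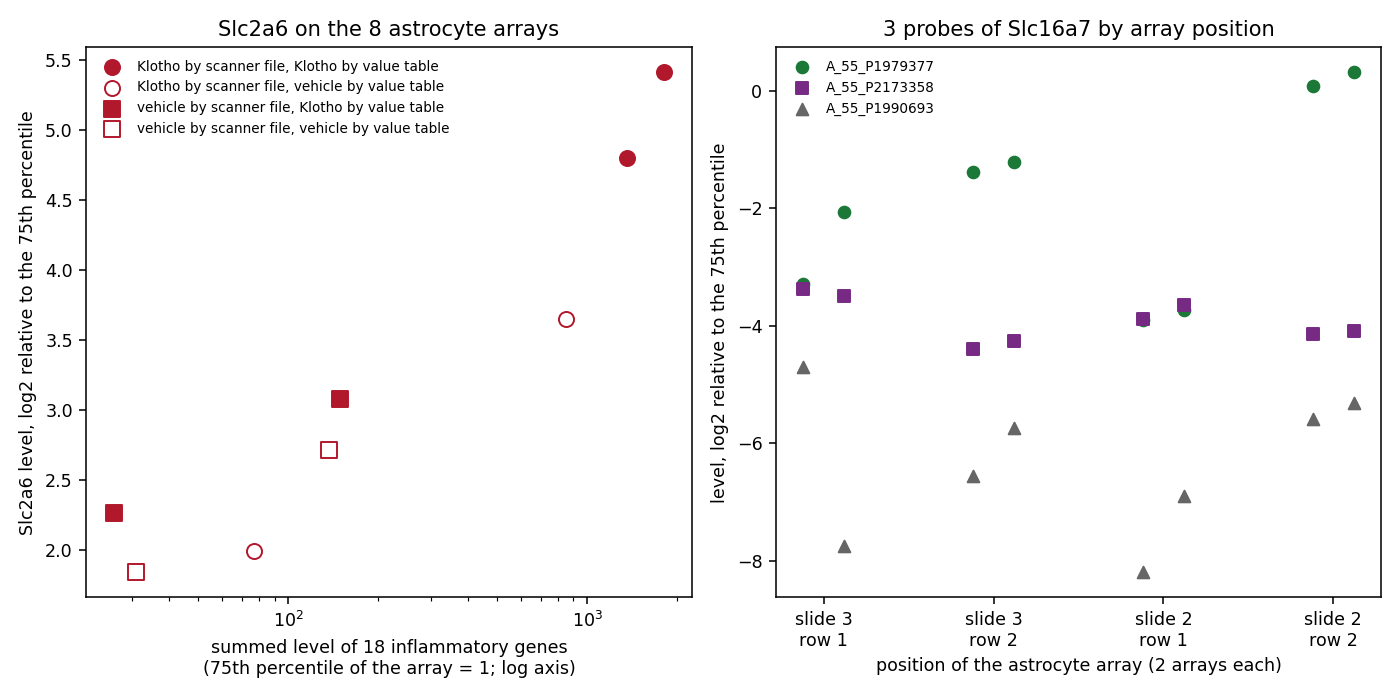
Left, Slc2a6 level (log2, vertical axis) against the summed level of 18 inflammatory genes (multiples of the 75th percentile, log axis) on the 8 astrocyte arrays, with shape for the treatment by scanner file and fill for the treatment by value table. Right, levels of the 3 Slc16a7 probes on the astrocyte arrays by slide and row, where the brightest probe lies between −1.38 and 0.31 in row 2 and between −3.91 and −2.06 in row 1.

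The sign of the difference depended on the assignment for 5 of the 10 genes: Slc16a4, Slc2a4, Slc16a1, Slc16a7 and Bsg. For Slc16a4, by scanner file the levels were 1.78, 0.89, 1.49 and 0.31 with Klotho and 0.64, 0.24, 1.18 and −0.02 with vehicle, which overlapped, with a difference of 0.61 ± 0.38. By value table they were 0.89, 0.24, −0.02 and 0.31 with Klotho and 0.64, 1.18, 1.49 and 1.78 with vehicle, with a difference of −0.92 ± 0.31 (limma adjusted p = 1.0). The same 8 values thus gave a positive or a negative difference, depending only on which 4 arrays were called treated. On the 4 arrays whose treatment was the same under both assignments, the difference was −0.32, though treatment there followed slide and slide column.

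Slc2a10 and Slc2a1 had lower means with Klotho by value table, neither called after adjustment. Slc2a10 had −1.44, −0.72, −1.14 and −0.96 with Klotho and −0.64, −0.06, −0.21 and −0.59 with vehicle. These groups did not overlap, as was so for 1.67% of everything tested, and the difference was −0.69 ± 0.24 (limma adjusted p = 1.0), or −0.59 and −0.80 within the 2 slides. Slc2a1 had 4.85, 5.46, 5.64 and 5.51 with Klotho and 5.41, 6.35, 6.44 and 6.00 with vehicle, which overlapped, a difference of −0.68 ± 0.29 (limma adjusted p = 1.0). By scanner file the differences were −0.16 ± 0.33 for Slc2a10 and −0.02 ± 0.37 for Slc2a1.

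Among the remaining carriers, by scanner file, Slc2a3 differed by −0.03 ± 0.19, Slc2a4 by 0.40 ± 0.27, Slc16a1 by 0.02 ± 0.25, Slc16a3 by 0.14 ± 0.24 and Bsg by 0.05 ± 0.36. By value table Slc2a3 differed by −0.16 ± 0.19, Slc2a4 by −0.40 ± 0.27, Slc16a1 by −0.18 ± 0.24, Slc16a3 by 0.28 ± 0.22 and Bsg by −0.26 ± 0.35. Slc16a7 differed by −0.17 ± 1.04 by scanner file (95% interval −2.54 to 2.19) and by 0.45 ± 1.03 by value table (−1.89 to 2.80), so that the interval spans both directions under each assignment. None of the other carrier, enzyme, regulator and hypoxia-target genes described above was called by limma in any Klotho comparison. At an unadjusted p below 0.05 there were 1 of 66 in neurons, 1 of 69 in astrocytes by scanner file and 3 of 70 by value table.

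**Figure D5:**
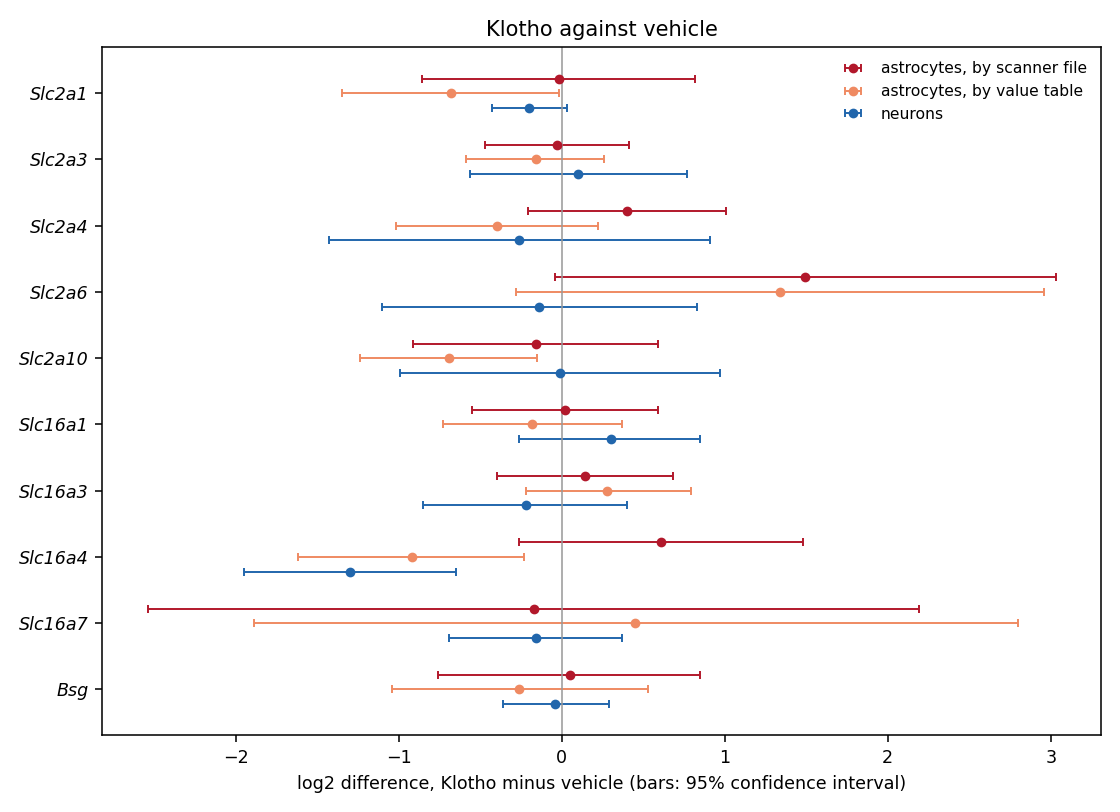
Klotho minus vehicle (log2, horizontal axis) for each of the 10 genes in astrocytes by scanner file, astrocytes by value table and neurons, with 95% intervals as bars. Slc16a4 lies at 0.61, −0.92 and −1.30, Slc2a6 at 1.49, 1.34 and −0.14, and every gene of the 10 has an adjusted p of 0.452 or above.

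The Klotho effect was set against itself between cell types as an interaction, astrocytes minus neurons. By scanner file 0 of 10 genes were called by limma, where 0.0881% of 26108 was called, and 1 of 10 had an unadjusted p below 0.05, against 5.25% of everything tested. That gene was Slc16a4, at 1.91 ± 0.50 (95% interval 0.84 to 2.97, limma adjusted p = 0.456). By value table its interaction was 0.38 ± 0.43 (adjusted p = 1.0). Slc2a6 had 1.63 ± 0.85 by scanner file (adjusted p = 0.97) and 1.48 by value table.

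Arrays within a group differed in a patterned way for much of what was tested, several carriers included. In neurons, the replicate 1 arrays stood apart from replicates 2 to 4 for 6 of 10 genes, where 54.9% of everything tested did so. They were higher for Slc2a6 by 1.35, for Slc2a3 by 0.93, for Slc16a1 by 0.68 and for Bsg by 0.33, and lower for Slc2a4 (−1.62) and Slc2a10 (−1.40). In astrocytes, array row 2 stood apart from row 1 for 1 of 10, the brightest Slc16a7 probe, at 2.69, where 41.2% of everything tested did so. Its second probe also stood apart by row but in the opposite direction, at −4.40 to −4.09 in row 2 and −3.88 to −3.38 in row 1. Its remaining probe overlapped between rows. Txnip, which binds GLUT1 and promotes its removal from the membrane, was at 0.22 with Klotho and 0.21 with vehicle on the neuron replicate 1 arrays, against 3.08–3.67 on the other neuron arrays.

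The genes whose levels ran most like each carrier were found by Pearson correlation over the 8 arrays of a cell type, among 14677 genes in astrocytes and 14579 in neurons. These correlations describe 8 arrays that share slides and rows, and carry no test. In astrocytes Slc2a6 ran with Birc3 (r = 0.998) and Tnip1 (r = 0.996), both known as NF-kappaB target genes. Slc2a1 ran with Adra2a (r = 0.987), Slc16a3 with Dgkg (r = 0.995) and Slc16a4 with Serinc5 (r = 0.988). In neurons Slc2a3 ran with Rasd2 (r = 0.999), Slc2a6 with Rapgef1 (r = 0.997) and Slc2a1 with Ppa2 (r = 0.985).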

How the data were processed

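RNA of each culture was hybridised to a 1-colour Agilent mouse array (design 028005, probes placed on NCBI37). Per the file headers, scanner images were read with Feature Extraction 12.0.3.1, protocol GE1_1200_Jun14, and the processed-signal intensity deposited by the authors was background-subtracted by that software. The deposited value table holds a score, each array's log signal rescaled to its own mean and SD; this was found by matching its columns to the scanner files. Of 62976 spots, 3671 controls were left out and spots of a probe averaged; no spot was saturated. Symbols came from RefSeq accessions (28331 of 55681 probes, 50.9%), the brightest probe stood for a gene, and unnamed probes were kept by accession, giving 36717 features. Log2 intensity minus the array's 75th percentile was fitted with limma 3.58.1 (R 4.3.3), with Benjamini-Hochberg adjustment at 0.05, over features with signal well above background throughout 1 or more of the groups compared. Python 3.11.15 drew the figures. The method was tested on simulated data.

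The fits within 1 cell type used its 8 arrays; the cell type and interaction fits used all 16. Named genes were the members, up to 4 genes of each pathway list and comparison with the smallest p, Slc2a2, Emb, Txnip, Ldha, Ldhb and Hk2 whatever they did, and the genes of highest correlation. Members and lists were chosen with earlier results of these data known. Deviations from the group mean correlated between equal replicate numbers at 0.178 to 0.782 in neurons and 0.187 to 0.727 in astrocytes by scanner file. Equal numbers were not always the closest: neuron Klotho replicate 2 had 0.178 with vehicle replicate 2 and 0.421 with vehicle replicate 3. Equal numbers also shared a slide column in neurons, and a row and column in astrocytes by scanner file. The data thus do not settle whether the numbers pair cultures, and the labels state no shared culture. By value table equal numbers ran from −0.749 to 0.643. Since the files hold no mean signal, normexp used the median signal, with an offset of 50. Replicate arrays correlated at 0.957 to 0.993 and no pair was identical. The number of arrays limits the precision.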

Additional observations from a re-analysis of the deposited data

Results flagged for a closer look

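Within groups of 4 arrays, 7 of 60 gene and group combinations held 1 array far from the other 3, by the gap to its neighbour divided by the group's range, set against Dixon's 95% critical value. The 60 include the astrocyte arrays grouped by scanner file and again by value table, and all 7 lay outside the value-table groups. Chance gives about 1 in 20 among independent groups, but these combinations share arrays, so the count carries no test. In Klotho-treated neurons it was replicate 1 for 4 genes: Slc2a3 (0.858; 4.34, with the others at 3.42–3.55), Slc2a4 (0.926; −1.84, with −0.50 to −0.40), Slc2a6 (0.958; 4.48, with 3.17–3.22) and Slc16a4 (0.952; −5.88, with −4.97 to −4.93). In vehicle neurons it was replicate 1 for Slc2a10 (0.836; −4.55, with −3.29 to −3.05). In astrocytes by scanner file it was Klotho replicate 2 for Slc2a3 (0.846; 0.75, with 1.16–1.24) and vehicle replicate 2 for Slc2a4 (0.891; 2.32, with 2.44–2.45). Neuron replicate 1 thus gave 5 of the 7. The neuron replicate 1 arrays also stood apart from replicates 2 to 4 for 54.9% of everything tested.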

How the results depend on the processing

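The 6 carriers called between astrocytes and neurons kept their direction under every alternative tried, and their call wherever they were tested: Slc2a1 ranged over 3.39–3.85, Slc2a3 −2.62 to −2.27, Slc2a4 2.86–3.60, Slc2a10 2.10–2.90, Slc16a3 2.63–2.99 and Slc16a4 3.83–6.30 (deposited z-scores aside). Requiring signal well above background on all arrays left Slc16a4 untested and 5 called. Leaving out 1 array gave 6 to 7 called carriers. Slc16a7 was called without vehicle astrocyte replicate 3 (−1.26, adjusted p = 0.0484) or 4 (−1.30, adjusted p = 0.0355) and as a mean of its probes (−1.15), Bsg with normexp (0.30). Emb was not called among Klotho-treated cultures (−0.55). The median over everything tested was −0.21, and −0.07 with normexp and quantile normalization.

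No Klotho comparison called a carrier under any alternative, except 1 (Slc16a4) in neurons without a background filter, and leaving out 1 array gave 0 throughout; the cause was not tested. The replicate block changed no carrier's call: Slc16a4 in neurons was −1.30 ± 0.21 (adjusted p = 0.234). Over everything tested, neurons gave 37 calls, 4035 with no filter, 4 with signal well above background on all arrays, 11 with normexp, 67 from the value table and 18 to 56 without 1 array. Astrocytes by scanner file gave 0, but 22 on the undisputed arrays and 16 without Klotho replicate 3. The interaction gave 23, but 0 with signal on all arrays, 12 with normexp, 19 with the arrays assigned by value table, 41 with that assignment and the table's z-scores together, and 170 without astrocyte Klotho replicate 3.

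Uncalled differences changed sign as follows, the cause not tested. In neurons, with the value table's z-scores, Slc2a6 was 0.02 and Bsg 0.04; Bsg was 0.02 with quantile normalization, 0.01 with normexp and 0.04 without both replicate 1 arrays. In astrocytes by scanner file, with normexp, Slc2a3 was 0.01, Slc16a1 −0.04 and Bsg −0.04; Bsg was −0.05 with quantile normalization; Slc16a7 was 0.07 as a mean of probes; with the deposited z-scores, which change the scale and also the treatment of 4 arrays, Slc2a4 was −0.11, Slc16a1 −0.01, Slc16a4 −0.23, Slc16a7 0.12 and Bsg −0.09; on the undisputed arrays Slc16a1 was −0.16, Slc16a4 −0.32, Slc16a7 0.28 and Bsg −0.21. Between cell types, Slc16a1 was 0.02 with median centring, 0.04 with quantile normalization, 0.01 from the value table, 0.14 without both neuron replicate 1 arrays and 0.10 among vehicle cultures; Slc2a6 was 0.45 among Klotho-treated cultures, Bsg −0.01 among vehicle cultures and Txnip −0.18 without both neuron replicate 1 arrays.

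Leaving out 1 array also turned signs. In neurons the ranges were −0.11 to 0.36 for Slc2a3, −0.72 to 0.09 for Slc2a4, −0.46 to 0.22 for Slc2a6, −0.36 to 0.34 for Slc2a10, −0.33 to 0.07 for Slc16a7 and −0.10 to 0.08 for Bsg. In astrocytes by scanner file they were −0.26 to 0.26 for Slc2a1, −0.08 to 0.09 for Slc2a3, −0.36 to 0.05 for Slc2a10, −0.15 to 0.18 for Slc16a1, −0.87 to 0.54 for Slc16a7 and −0.18 to 0.25 for Bsg; by value table −0.21 to 1.19 for Slc16a7. Between cell types they were −0.12 to 0.06 for Slc16a1 and −0.07 to 0.15 for Bsg. Slc16a4 in neurons lies near background, which limits its fold.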

Other observations

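On the 4 astrocyte arrays whose treatment was the same under both assignments (2 with Klotho, 2 with vehicle), Slc2a6 differed by 2.83 ± 0.50, or 7.13-fold (limma adjusted p = 0.256), higher with Klotho. On the same arrays Slc2a10 differed by −0.85 and Slc2a1 by −0.70 (adjusted p = 1.0). These Klotho arrays were on one slide in column 4, and these vehicle arrays on another slide in column 3. Treatment on these arrays thus cannot be told apart from slide or slide column.

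Arrdc4, a relative of Txnip among the carrier regulators, had the levels 1.12, 3.39, −0.50 and 2.45 in Klotho-treated astrocytes by scanner file, against −0.25, −0.05, −1.0 and −1.01 in vehicle astrocytes. The groups overlapped, and the difference of 2.19 ± 0.74 had an adjusted p of 1.0 in limma. By value table the Arrdc4 mean was 1.19 (SD 2.07) with Klotho and −0.16 (SD 0.9) with vehicle. Over the Klotho arrays by scanner file, its order was that of Slc2a6.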
